A study of Saccharomyces cerevisiae with 12 samples.

Results

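The large subunit of the yeast cytosolic ribosome is built on proteins encoded by 81 genes, RPL1A to RPL43B and the stalk genes RPP0, RPP1A, RPP1B, RPP2A and RPP2B. The genes were taken by name from the annotation in the authors' deposited table, and the mitochondrial MRPL genes were left out. Values were present for 78 of the 81 genes, among 5769 genes analysed on the arrays. RPL35A, RPL41A and RPL41B carried no value in any sample and are not described further.

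The arrays compared Saccharomyces cerevisiae Y55 (JT20150, MAT-alpha MAL1 SUC1) with 3 mutants derived from it, fhf1, fhf2 and fhf3. The mutants were obtained with UV and are labelled as fermenting maltose fast, and the mutated genes are not named in the labels. Each of the 4 strains was represented by 3 cultures grown separately, so 12 arrays were available, and all strains carried the same MAT-alpha MAL1 SUC1 background. Every culture was a stirred, semi-aerobic 200 mL fermentation of rich medium with 20% maltose at 22 °C, started at an optical density of 0.2 from a 72 h aerobic pre-culture on glucose at 30 °C, and was sampled on day 2. Because each strain was sampled on the same day, strain and fermentation stage cannot be told apart. Each mutant is a single isolate, so an effect of the fhf mutation cannot be told apart from that of any other UV lesion in it. In bulk cultures, a change in RNA per cell and a change in the share of cells that make it cannot be told apart either.

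Poly(A) RNA was purified from total RNA, copied into cDNA from an oligo(dT) primer, labelled with Cy3 and hybridised to 1-colour NimbleGen arrays with 8 probes per gene. The deposited log2 signals had array medians between 12.09 and 12.98, so single-culture values are given here as log2 signal minus the median of that array. A fold change is the difference between strain means minus the same difference for the median of all genes. Signed differences of the printed single-culture levels, mutant minus wild type, therefore lie above the printed fold changes. The offset is 0.037 for fhf1, 0.031 for fhf2 and 0.096 for fhf3. A fall is thus smaller in the levels than in its fold change, and a rise is larger. Fold changes were tested with limma across all 5769 genes, with Benjamini-Hochberg adjustment and a threshold of 0.05, and their standard errors ran from 0.259 to 0.287. The same test on quantile-normalised arrays, which had a median standard error of 0.126 in place of 0.264, is given beside the counts because it called more genes, and "called" without further words refers to the deposited values. The signal is not read as transcript abundance across genes, since each gene has its own probes. In wild type, the alpha-cell markers MF(ALPHA)1, SAG1 and STE3 stood above the array median, at 1.26, 1.74 and 0.80, and MF(ALPHA)2 stood below it at -0.70. All 7 a-cell markers stood below the array median there, from MFA1 at -0.22 to AGA2 at -3.05. Of the a-cell markers, 4 of 7 (MFA1, MFA2, STE2 and STE6) fell in fhf3 against wild type, MFA1 to -1.78, and of the alpha-cell markers 1 of 4, MF(ALPHA)2, rose there. Of 5 meiosis and spore markers, IME1 fell in fhf1 and fhf3 and SPS4 in fhf1. Among all genes, 11.6% fell and 4.39% rose in fhf3, and 2.36% fell in fhf1. The part of these markers in the results below was not tested.

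Ribosomal proteins are among the most heavily transcribed genes of a growing yeast cell, and most of them survive as a pair of near-identical copies left from an ancient genome duplication. Their promoters are bound by Rap1, Fhl1 and Ifh1, and the TOR and protein kinase A pathways turn them up in rich medium and down when growth slows. Large-subunit proteins are imported into the nucleus, fitted onto pre-rRNA in the nucleolus with the help of assembly factors, and exported as a pre-60S particle that matures in the cytoplasm. The finished subunit holds the peptidyl transferase centre, the exit tunnel for the new chain and the stalk that recruits elongation factors.

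The family stood lower in fhf1 and fhf2 than in wild type and higher in fhf3. The median large-subunit gene lay 0.72, 1.05 and 0.82 above the array median in the wild-type cultures, a mean of 0.86 ± 0.17 (SD, n = 3). In fhf1 the same median was 0.01, 0.35 and 0.59, a mean of 0.32 ± 0.29 (SD, n = 3). In fhf2 it was 0.53, 0.38 and 0.53, a mean of 0.48 ± 0.09 (SD, n = 3), and in fhf3 it was 1.17, 1.22 and 1.31, a mean of 1.23 ± 0.07 (SD, n = 3). The fhf1 and fhf2 cultures overlapped each other and all lay below wild type, and the fhf3 cultures all lay above it. The plot of members by array shows these shifts together with the spread of the members around each median. The fhf1 cultures were spread widest: culture 1 was lower than culture 3 in 78 of 78 members and lower than culture 2 in 77. Within wild type, culture 2 was higher than culture 1 in 76 members. Over all genes, fhf1 culture 1 was lower than culture 3 in 46.3% of genes and lower than culture 2 in 58.2%, and wild-type culture 1 was lower than culture 2 in 44.0%.

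**Figure D1:**
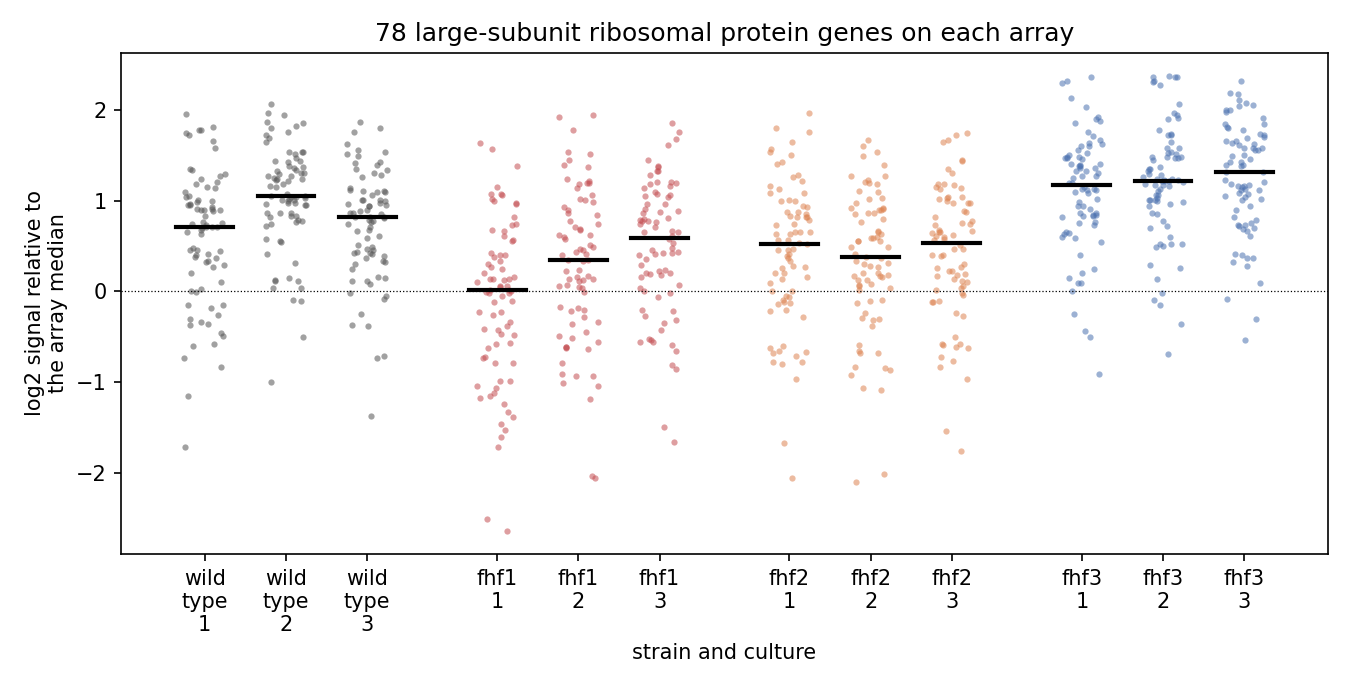
Log2 signal relative to the array median (y axis) of the 78 large-subunit genes with values, one point per gene, on each of the 12 arrays (x axis, strain and culture number); the bar is the median of the family. The 3 fhf3 medians, between 1.17 and 1.31, lie above all other cultures, and fhf1 culture 1, at 0.01, lies lowest.

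In fhf1 the median fold change of the family was -0.60 on the log2 scale, 77 of 78 members lay below the median gene, and 15 fell past the test, where 2.36% of all genes did. No member rose in fhf1, against 0.52% of all genes. With quantile-normalised arrays 56 members fell, where 10.2% of all genes did, and none rose, against 5.79%. The 3 fhf1 arrays lay entirely below the 3 wild-type arrays in 42 members, against 13.8% of all genes, and entirely above them in 1, against 15.9%. The count of 15 depended on single cultures: it was 0 without fhf1 culture 1, 2 without fhf1 culture 2 and 24 without fhf1 culture 3. It was 23 without wild-type culture 1 and 5 without either wild-type culture 2 or culture 3. On quantile-normalised arrays the count ran from 31 to 64 as each array was left out, and the lowest value was without wild-type culture 2. In the authors' deposited table, which tested for a change beyond 2-fold, no member was called in any mutant, where 0.19%, 0.156% and 2.86% of all genes were called lower in fhf1, fhf2 and fhf3 and 0%, 0% and 0.0866% higher. The deposited fold change was beyond 2-fold for 4 members in fhf1.

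The largest falls in fhf1 were those of both RPL22 copies, which encode a non-essential protein of the subunit surface. RPL22B stood at -1.15, -0.51 and -0.73 in the wild-type cultures and at -2.65, -2.04 and -1.66 in the fhf1 cultures. The groups did not overlap, and RPL22B was 2.56-fold lower in fhf1 (log2 fold change -1.35, SE 0.27, limma adjusted p = 0.000145). RPL22A stood at -0.46, 0.55 and 0.30 in wild type and at -1.61, -0.94 and -0.56 in fhf1. Here too the groups were separate, by a narrow gap between wild-type culture 1 and fhf1 culture 3, and the fold change was -1.21 (SE 0.28, limma adjusted p = 0.00159). RPL43B, a copy of the zinc-binding protein L43, fell by 1.13, from 0.37 ± 0.37 in wild type to -0.72 ± 0.43 in fhf1 (SD, n = 3). RPL43A, the other copy, had a fold change of -0.54 and was not called (limma adjusted p = 0.487). RPL13A fell by 1.04, RPL31B at the tunnel exit fell by 1.01, and RPL9A fell by 1.00, all with arrays that did not overlap those of wild type. Other called members included RPP2A, RPL11A, RPL8B, RPL12A, RPL26B, RPL27B, RPL37A and RPL15A. In RPL37A alone among the 15 the cultures overlapped, since fhf1 culture 3 at -0.43 lay above wild-type culture 1 at -0.60.

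In fhf2 the shift had the same sign and fewer members passed. The median fold change was -0.43 and 77 of 78 members lay below the median gene, but only RPL22B fell past the test, against 1.11% of all genes. No member rose, against 0.0693% of all genes. With quantile-normalised arrays 19 members fell, where 5.29% of all genes did, and none rose, against 2.06%. The fhf2 arrays lay below all wild-type arrays in 45 members, against 12.5% of all genes, and above them in none, against 13.5%. RPL22B stood at -1.67, -2.01 and -1.54 in fhf2, below every wild-type culture, and was 1.97-fold lower (log2 fold change -0.98, SE 0.27, limma adjusted p = 0.037). That single call was lost without any of the 3 fhf2 cultures, without wild-type culture 2 or 3 and without fhf1 culture 1 or 2, and 5 members were called without wild-type culture 1. It was lost as well under several other settings listed with the processing results.

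Set against each other, fhf1 and fhf2 gave no called member in either direction, where 0.139% of all genes were higher and 0.121% lower. With quantile-normalised arrays the count was also 0, against 0.763% higher and 0.832% lower. On the deposited values 0 of 78 members had an unadjusted limma p under 0.05, where 160 of 5769 genes did. The median member was 0.17 lower in fhf1. Without fhf1 culture 1 the median fold change was -0.018, and 32 of 78 members lay above the median gene. The fhf1 arrays lay below all fhf2 arrays in 6 members, against 9.2% of all genes, and above them in none, against 10.5%. RPL43B at -0.49, RPP2B at -0.49 and RPL29, a small protein of the subunit interface, at -0.44 were the lowest members. RPL15B at 0.19, RPL4A at 0.15 and RPL3 at 0.13 were the highest. Equality of the 2 mutants was not tested.

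In fhf3 the family lay above wild type once array level was taken out. Its median fold change was 0.31 and 76 of 78 members lay above the median gene, but no member passed the test on the deposited values, where 4.39% of all genes rose and 11.6% fell. With quantile-normalised arrays 11 members rose, which is below the 21.4% of all genes that rose there, and none fell, against 24.6%. The fhf3 arrays lay above all wild-type arrays in 38 members, against 32.1% of all genes, and below them in none, against 22.7%. The deposited fhf3 signals ran 0.28 lower than wild type at the median gene. Without subtracting that shift the median member changed by 0.03, and 49 of 78 members lay above 0, so the higher position of the family holds only relative to the other genes on the array. Leaving out wild-type culture 2 brought the count of called members to 11, and every other omission left it at 0.

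RPL11B, RPL33B and RPL39 had the highest fold changes in fhf3. RPL11B, a copy of the protein that binds 5S rRNA with Rpl5, stood at -0.73, 0.04 and -0.05 in wild type and at 0.41, 0.49 and 0.67 in fhf3. The arrays did not overlap, and the fold change of 0.67 (SE 0.27) missed the threshold on the deposited values with a limma adjusted p of 0.0732. On quantile-normalised arrays the same gene rose by 0.70 with an adjusted p of 0.00545. RPL33B had a fold change of 0.62 (limma adjusted p = 0.108) and RPL39, which lines the exit tunnel, one of 0.61 (limma adjusted p = 0.123). RPL26A at -0.11, RPL15B at -0.11 and RPL10 at 0.04 were the lowest.

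Members called between mutants all separated fhf3 from the other two. Against fhf1, 59 of 78 members were higher in fhf3 and none lower, where 10.4% of all genes were higher and 9.34% lower. Against fhf2, 42 members were higher and none lower, where 7.73% of all genes were higher and 9.2% lower. With quantile-normalised arrays the counts were 75 higher and 1 lower against fhf1, where 24.1% and 23.5% of all genes were called, and 69 and 0 against fhf2, where 22.7% and 23.4% were. The fhf3 arrays lay above all fhf1 arrays in 75 members and above all fhf2 arrays in 75, against 26.9% and 32.7% of all genes. They lay below all fhf1 arrays in 1 member, RPL15B, and below all fhf2 arrays in none, against 26.5% and 27.5%. The median fold change was 0.94 against fhf1 and 0.76 against fhf2. The median gene was 0.382 lower in fhf3 than in fhf1 and 0.422 lower than in fhf2. Without subtracting these shifts the medians of the family were 0.56 and 0.33. Members called were then 34 higher and 1 lower against fhf1, and 10 higher and 0 lower against fhf2. The shares of all genes called without that subtraction are not given here. With it, the count of 59 against fhf1 was 30 without fhf1 culture 1, and the count of 42 against fhf2 was 24 without fhf2 culture 2.

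RPL22B was 3.55-fold higher in fhf3 than in fhf1 (log2 fold change 1.83, SE 0.27, limma adjusted p = 1.27e-08), with fhf3 cultures at -0.44, -0.10 and -0.31. RPL11A stood at 0.58, 0.52 and 0.61 in fhf3, at -1.47, -0.91 and -0.81 in fhf1 and at -0.80, -1.06 and -0.84 in fhf2. It was 3.09-fold higher in fhf3 than in fhf1 (limma adjusted p = 4.03e-07) and 2.72-fold higher than in fhf2 (limma adjusted p = 1.07e-05). Both genes were separated completely, with every fhf3 culture above every fhf1 and fhf2 culture. RPP2A at 1.58, RPL8B at 1.58, RPL22A at 1.57, RPL13A at 1.56, RPL43B at 1.52 and RPL15A at 1.50 completed the 8 largest log2 fold changes against fhf1. Against fhf2 the largest were RPL11A at 1.44, RPL22B at 1.43, RPL36A at 1.23, RPL15A at 1.21, RPL11B at 1.21, RPP2A at 1.21, RPL22A at 1.20 and RPL13A at 1.18. RPL15B was the only member below the median gene in either comparison, at -0.34 against fhf1 and -0.17 against fhf2.

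**Figure D2:**
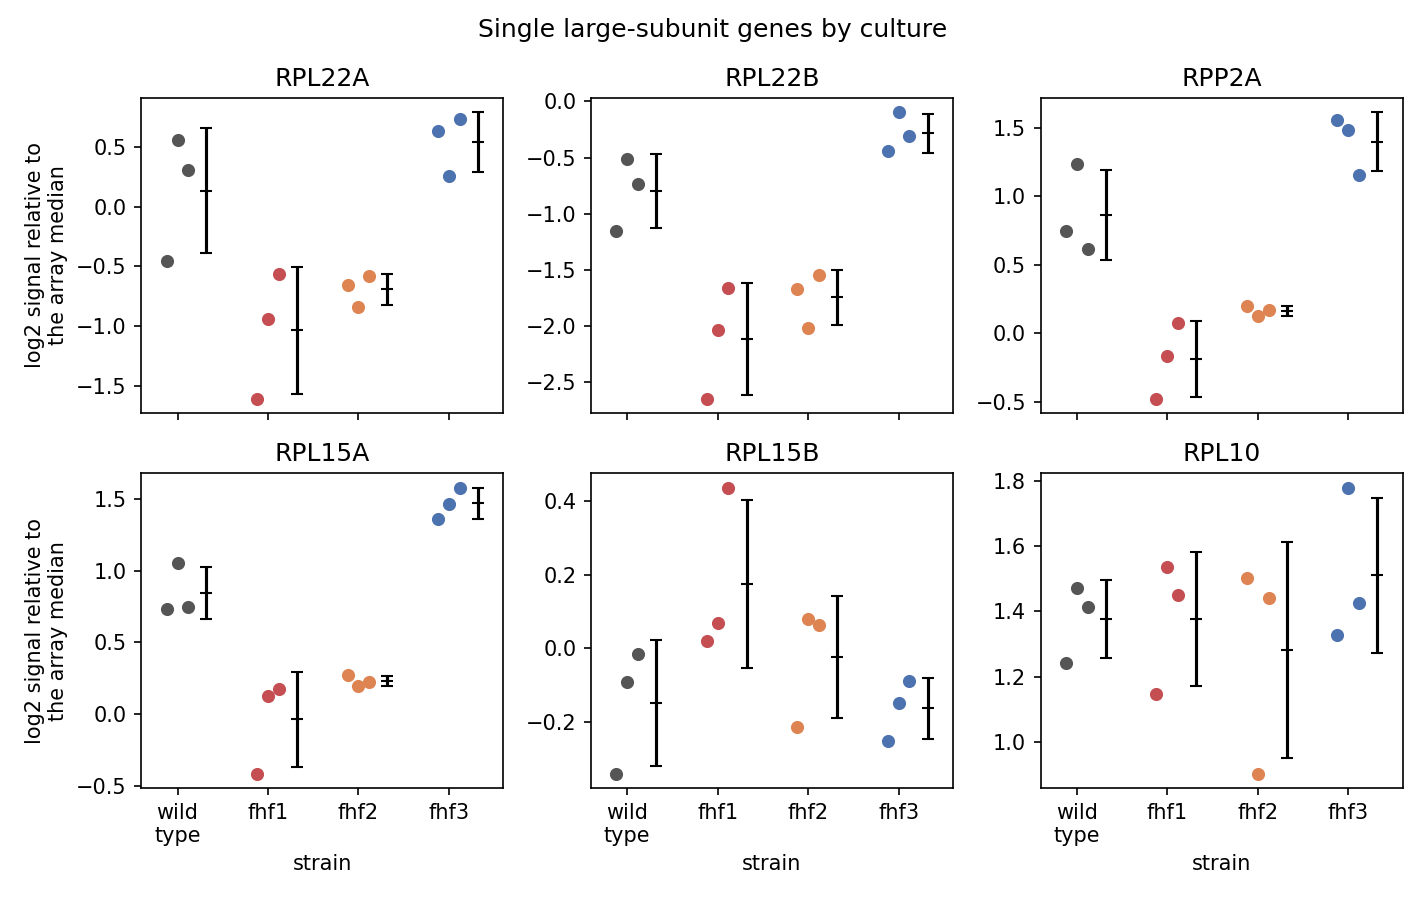
Log2 signal relative to the array median (y axis, with its own range in each panel) of 6 large-subunit genes in the 3 cultures of each strain (x axis, points), with the mean and SD beside them. RPL22A, RPL22B, RPP2A and RPL15A lie lower in fhf1 and fhf2 than in wild type, while RPL15B lies higher in fhf1 and the RPL10 cultures overlap between all strains.

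By place in the subunit, the 15 falls in fhf1 were 2 of 7 genes in the acidic stalk and its base, 2 of 11 at the tunnel exit, 1 of 3 in the 5S particle and 10 of the 41 members without a listed place. On the deposited values none came from the catalytic centre, the L1 stalk or the late-joining and subunit-face genes. Of all genes, 2.36% fell in fhf1 on those values. With quantile-normalised arrays the falls were 6 of 7 in the acidic stalk and its base, 7 of 11 at the tunnel exit and 2 of 3 in the 5S particle. They were 34 of 41 without a listed place, 1 of 7 at the catalytic centre, 2 of 2 in the L1 stalk and 4 of 7 among the late-joining and subunit-face genes. Of all genes, 10.2% fell on those arrays. The stalk consists of P0, which anchors heterodimers of the acidic proteins P1 and P2, and of L12 at its base, and it contacts elongation factors during each cycle of translation. RPP2A, which encodes the P2 alpha protein, stood at 0.75, 1.23 and 0.61 in wild type, at -0.48, -0.17 and 0.08 in fhf1, at 0.20, 0.13 and 0.17 in fhf2 and at 1.56, 1.48 and 1.16 in fhf3. The fhf1 and fhf2 cultures lay below all wild-type cultures, and fhf3 culture 3 overlapped wild type. It was 2.13-fold lower in fhf1 than in wild type (log2 fold change -1.09, SE 0.27, limma adjusted p = 0.00422). RPL12A fell by 0.96 in fhf1 (limma adjusted p = 0.019), and the other copy, RPL12B, had a fold change of -0.54 (limma adjusted p = 0.491).

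The other 4 P genes were not called in fhf1 on the deposited values. RPP0 stood at 0.70, 0.95 and 0.81 in wild type and at -0.01, 0.14 and 0.19 in fhf1, with no overlap and a fold change of -0.75 (limma adjusted p = 0.124). On quantile-normalised arrays RPP0 fell by 0.79, with an adjusted p of 0.000503. RPP2B had a fold change of -0.64, RPP1A of -0.59 and RPP1B of -0.48. RPP1B was measured least evenly, since its wild-type cultures stood at 0.00, 1.25 and 0.68 and enclosed those of fhf1. Between fhf3 and fhf1, RPP0 was 2.15-fold higher (limma adjusted p = 0.0007), RPP2B 2.05-fold higher and RPP1A 1.96-fold higher. Of the 7 genes of the stalk and its base, 6 were higher in fhf3 than in fhf1 and 4 were higher than in fhf2, or 7 and 6 on quantile-normalised arrays. Of all genes, 10.4% and 7.73% were higher on the deposited values and 24.1% and 22.7% on quantile-normalised arrays. RPP1B was called in neither comparison on the deposited values (limma adjusted p = 0.0952 and 0.228).

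The proteins of the 5S particle deliver 5S rRNA to the pre-ribosome. RPL11A fell by 1.04 in fhf1 (limma adjusted p = 0.00871) and RPL11B had a fold change of -0.52. RPL5, a single-copy gene, stood at 1.95, 1.97 and 1.76 in wild type and at 1.38, 1.94 and 1.61 in fhf1, groups that overlapped. RPL5 had fold changes against wild type of -0.29, -0.16 and 0.32 in fhf1, fhf2 and fhf3, none of which passed on the deposited values. The L1 stalk genes RPL1A and RPL1B, whose protein guides spent transfer RNA off the ribosome, had fold changes of -0.33 and -0.29 in fhf1. Both were higher in fhf3 than in fhf1, by 0.81 and 0.89.

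Around the peptidyl transferase centre, 0 of 7 genes were called in fhf1, where 2.36% of all genes fell and 0.52% rose. Their median fold change was -0.13, or -0.30 on quantile-normalised arrays. RPL10, which joins the pre-60S particle last in the cytoplasm and closes the transfer RNA site, stood at 1.24, 1.47 and 1.41 in wild type, 1.15, 1.54 and 1.45 in fhf1, 1.50, 0.90 and 1.44 in fhf2 and 1.33, 1.78 and 1.43 in fhf3. All 4 strains overlapped, and the fold changes against wild type were -0.03, -0.12 and 0.04. RPL3, whose protein reaches into the centre, had fold changes of -0.23, -0.36 and 0.24, and RPL28, the site of cycloheximide resistance mutations in yeast, of -0.64, -0.48 and 0.19. Between fhf3 and fhf1, RPL28 was the 1 member of the 7 that was called, at 0.89 (limma adjusted p = 0.00893), beside 34 of the 41 members without a listed place. On quantile-normalised arrays 6 of the 7 and 40 of the 41 were higher in fhf3 than in fhf1. Of all genes, 10.4% were higher in that comparison on the deposited values and 24.1% on quantile-normalised arrays. At the tunnel exit, RPL31B and RPL26B fell among 11 genes in fhf1, and 8 of 11 were higher in fhf3 than in fhf1, or 11 on quantile-normalised arrays. RPL25, the docking protein for factors that meet the new chain, had a fold change of -0.42 in fhf1 (limma adjusted p = 0.742). Of the 7 late-joining or subunit-face genes, RPL29 had a fold change of -0.83 in fhf1 (limma adjusted p = 0.0812). These counts were not tested between places.

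**Figure D3:**
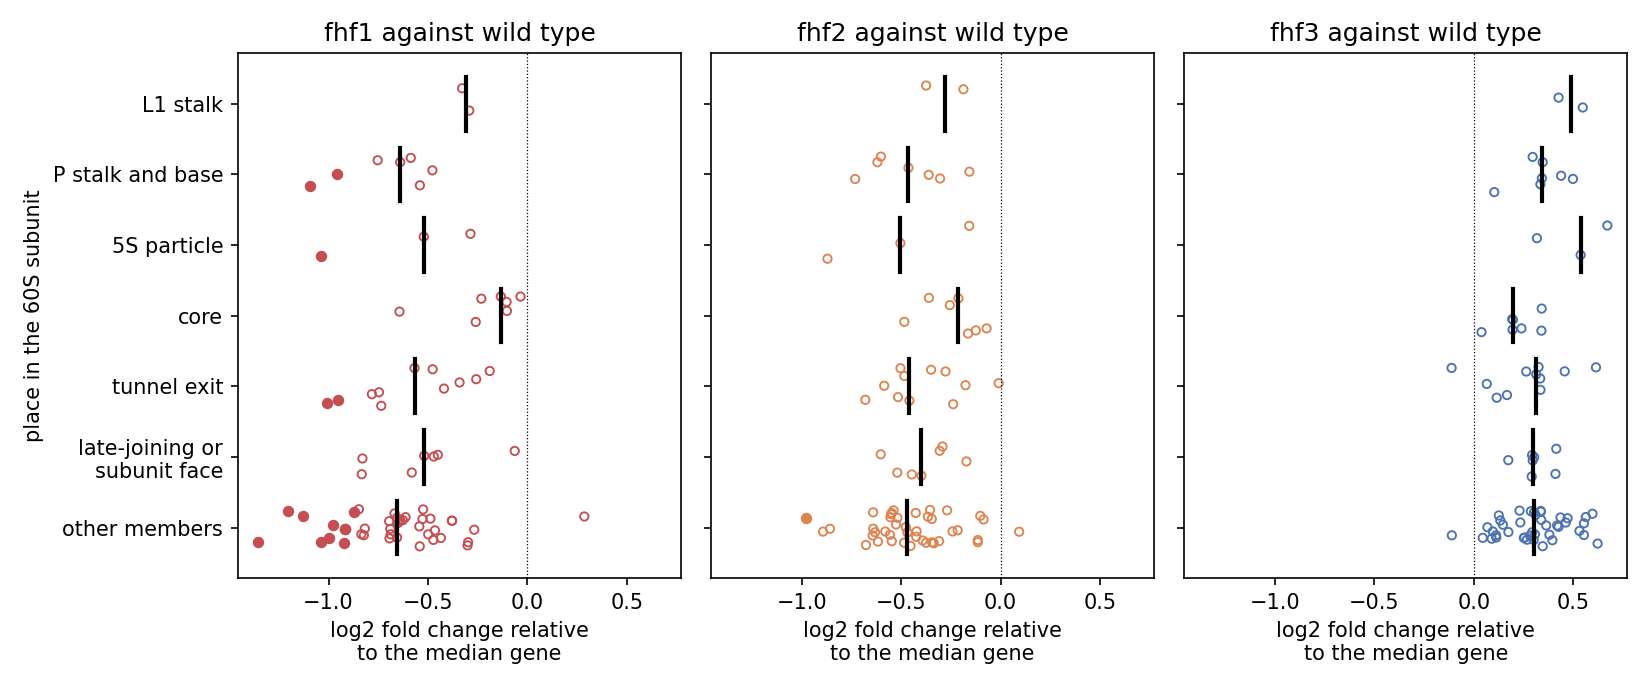
Log2 fold change relative to the median gene (x axis, same range in each panel) of the 78 members in each mutant against wild type, grouped by place in the 60S subunit (y axis). Each circle is a gene, filled where it passed the limma test, and the bar is the median of its place. In fhf1 the 7 core genes have a median of -0.13 and the 41 other members one of -0.66.

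The size of the fold change went with the brightness of the gene on the arrays. Across the 78 members, the correlation between fold change and mean log2 signal was 0.57 in fhf1, 0.62 in fhf2 and -0.17 in fhf3 (Pearson). It was -0.52 between fhf3 and fhf1 and -0.55 between fhf3 and fhf2. On quantile-normalised arrays these values were 0.40, 0.51, -0.44, -0.51 and -0.60. The 39 brighter members had a median fold change of -0.44 in fhf1 and the 39 dimmer members one of -0.78. The genes around the catalytic centre had a median signal of 13.9, against 13.1 for the stalk and 12.2 for the 5S particle. The part of signal level in the differences between places and between genes was not tested, and genes of one array are not independent of each other.

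Of the 11 single-copy members 0 fell in fhf1, with a median fold change of -0.44, and of the 67 genes with a second copy 15 fell, with a median of -0.63, where 2.36% of all genes fell. With quantile-normalised arrays 6 of 11 and 50 of 67 fell, where 10.2% of all genes did, and the 2 kinds of gene were not tested against each other. Beyond those already described, RPL30, which in yeast controls the splicing of its own transcript, stood at 1.14, 1.80 and 1.35 in wild type, at 0.12, 0.86 and 1.33 in fhf1 and at 1.87, 2.31 and 2.18 in fhf3. Its fhf1 culture 3 overlapped wild type and its fhf3 cultures did not. RPL30 was 2.54-fold higher in fhf3 than in fhf1 (limma adjusted p = 4.5e-05) and 1.96-fold higher than in fhf2 (limma adjusted p = 0.0054). RPL39 was 2.21-fold higher in fhf3 than in fhf1 and RPL25 was 1.75-fold higher. RPL32 and RPL38, both proteins of the subunit surface, were called in no comparison on the deposited values, with fold changes of -0.27 and -0.44 in fhf1. On quantile-normalised arrays both were higher in fhf3 than in fhf1, with adjusted p-values of 0.0119 and 0.00949, and RPL38 was also lower in fhf1 than in wild type (adjusted p = 0.0356, limma) and higher in fhf3 than in fhf2 (adjusted p = 0.0269). Of the single-copy members, 6 were higher in fhf3 than in fhf1 and 5 were higher than in fhf2, or 10 and 9 on quantile-normalised arrays. Of all genes, 10.4% and 7.73% were higher on the deposited values and 24.1% and 22.7% on quantile-normalised arrays.

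The copies of a pair were compared by the difference of their fold changes. Across the 33 pairs with values for both genes, counting RPP1 and RPP2 as pairs although their A and B proteins are related rather than near-identical, the median difference between the copies' fold changes was 0.23 in fhf1, 0.17 in fhf2 and 0.16 in fhf3. The log2 difference between the copies did not overlap that of the wild-type cultures in 12 of the 33 pairs in fhf1, 9 in fhf2 and 3 in fhf3, and pairs of other genes were not compared. The authors' annotation describes 58 of the 81 genes as identical or nearly identical to a second copy in protein, and how far the probes of such copies read each other's transcripts was not tested. The RPL22 copies, described there only as similar, had fold changes of -1.21 and -1.35 in fhf1, -0.86 and -0.98 in fhf2 and 0.31 and 0.42 in fhf3.

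The RPL15 copies, which encode a protein bound to 5.8S rRNA, were the 1 pair whose fold changes differed by more than 0.8 in any mutant. RPL15A stood at 0.73, 1.05 and 0.75 in wild type, at -0.42, 0.13 and 0.18 in fhf1, at 0.27, 0.20 and 0.23 in fhf2 and at 1.36, 1.47 and 1.58 in fhf3. It fell by 0.92 in fhf1 (limma adjusted p = 0.0268), and the cultures of each mutant were separate from those of wild type. RPL15B stood at -0.34, -0.09 and -0.01 in wild type, at 0.02, 0.07 and 0.44 in fhf1, at -0.21, 0.08 and 0.06 in fhf2 and at -0.25, -0.15 and -0.09 in fhf3. Its fhf1 cultures lay above all wild-type cultures, and it was the 1 member of 78 above the median gene there, but its fold changes of 0.29, 0.09 and -0.11 did not pass the test. The log2 signal of RPL15A minus that of RPL15B was 1.07, 1.14 and 0.76 in wild type, -0.44, 0.06 and -0.26 in fhf1, 0.48, 0.12 and 0.16 in fhf2 and 1.61, 1.62 and 1.67 in fhf3. No mutant culture overlapped wild type in this difference, which was 1.20 lower in fhf1, 0.74 lower in fhf2 and 0.64 higher in fhf3 on average. Its absolute value depends on the probes and does not give the ratio of the transcripts.

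The order of the members was compared between comparisons that share no array. Fold changes of fhf2 against wild type and of fhf3 against fhf1 correlated at -0.79 over the 78 members (Spearman -0.76) and at -0.03 over all genes. For fhf1 against wild type and fhf3 against fhf2 the values were -0.80 (Spearman -0.76) and -0.01. Members lower in fhf1 or fhf2, such as RPL22B and RPL11A, were thus those with the largest excess in fhf3 over the other mutant, and RPL10 and RPL15B lay at the opposite end. For fhf3 against wild type and fhf1 against fhf2 the correlation was -0.27. The points share the 12 arrays' probes and their signal levels, with which the fold changes also correlated, and the part of either was not tested.

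**Figure D4:**
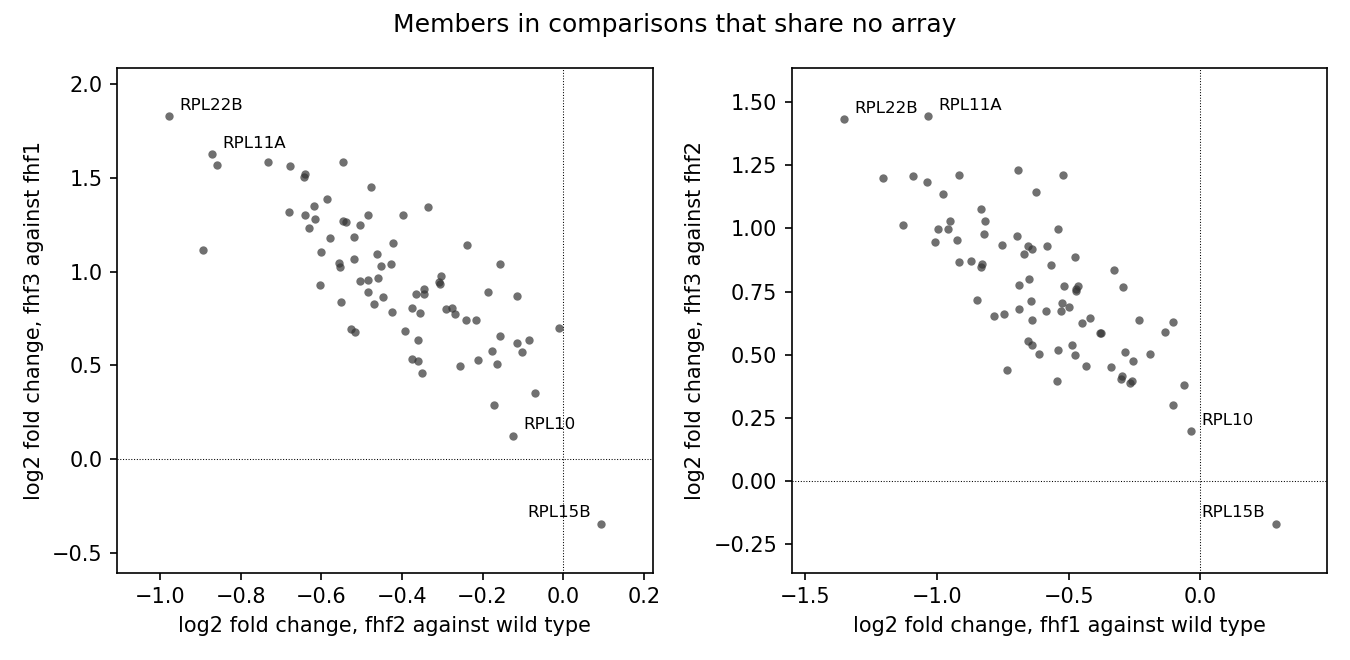
Log2 fold changes of the 78 members in pairs of comparisons that have no array in common: fhf2 against wild type and fhf3 against fhf1 (left), fhf1 against wild type and fhf3 against fhf2 (right), one point per gene. RPL22B and RPL11A lie at the upper left, and RPL10 and RPL15B at the lower right.

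The small-subunit proteins had medians of the same sign as the large subunit in each mutant. In fhf1, 6 of 53 small-subunit genes fell and none rose, with RPS22A at -1.77, RPS26B at -1.42, RPS21A at -1.10 and RPS24B at -1.06, where 2.36% of all genes fell. With quantile-normalised arrays 37 fell, where 10.2% of all genes did. The median fold change of the small-subunit genes was -0.54 in fhf1, -0.41 in fhf2 and 0.28 in fhf3, beside -0.60, -0.43 and 0.31 for the large subunit. In fhf2 1 small-subunit gene fell, RPS22A at -1.08, where 1.11% of all genes fell. In fhf3 none was called, where 4.39% of all genes rose and 11.6% fell. Quantile-normalised arrays gave 17 lower in fhf2, where 5.29% of all genes were. They gave 9 of 53 higher in fhf3, which is below the 21.4% of all genes that rose there. Between fhf3 and fhf1, 36 of 53 were higher, and between fhf3 and fhf2, 26, where 10.4% and 7.73% of all genes were. On quantile-normalised arrays these counts were 49 and 43, where 24.1% and 22.7% of all genes were higher. No difference between the 2 subunits was tested.

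Of 68 factors that assemble the 60S subunit, 15 rose in fhf3 against wild type and none fell, where 4.39% of all genes rose, beside 0 of 78 large-subunit genes. With quantile-normalised arrays 57 of 68 rose in fhf3, where 21.4% of all genes did, beside 11 of 78 large-subunit genes. ARX1, which escorts the pre-60S particle through the nuclear pore, rose by 1.12, from -0.78 ± 0.14 in wild type to 0.44 ± 0.10 in fhf3 (SD, n = 3). MRT4, which holds the place of P0 during assembly, rose by 1.00, and RSA4 and YTM1, both released by the Rea1 ATPase, rose by 0.97 each. In fhf1, HAS1, a helicase of early assembly, fell by 1.01 and NIP7 fell by 0.90. They were the only 2 of 68 called there, where 2.36% of all genes fell. No assembly factor was called in fhf2, where 1.11% of all genes fell and 0.0693% rose. On quantile-normalised arrays 21 fell and 1 rose in fhf1, where 10.2% and 5.79% of all genes did. In fhf2 11 fell on those arrays, where 5.29% of all genes did. Between fhf3 and fhf1, 49 of 68 were higher, where 10.4% of all genes were, and between fhf3 and fhf2, 42, where 7.73% were. On quantile-normalised arrays these counts were 64 and 62, where 24.1% and 22.7% of all genes were higher. The difference between the assembly factors and the ribosomal proteins was not tested. Mitochondrial large-subunit proteins, which are made for a separate ribosome, gave 0 of 33 calls against wild type in each mutant. Among all genes, 2.36%, 1.11% and 11.6% fell in fhf1, fhf2 and fhf3, and 0.52%, 0.0693% and 4.39% rose. Between fhf3 and fhf2, 7 mitochondrial genes were lower in fhf3, where 9.2% of all genes were. On quantile-normalised arrays 2 mitochondrial genes rose in fhf2 against wild type, where 2.06% of all genes did. In fhf3, 9 of 33 fell against wild type, near the 24.6% of all genes that fell there. Against fhf1, 11 were lower and 1 higher in fhf3, where 23.5% and 24.1% of all genes were. Against fhf2, 23 were lower in fhf3, where 23.4% of all genes were.

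**Figure D5:**
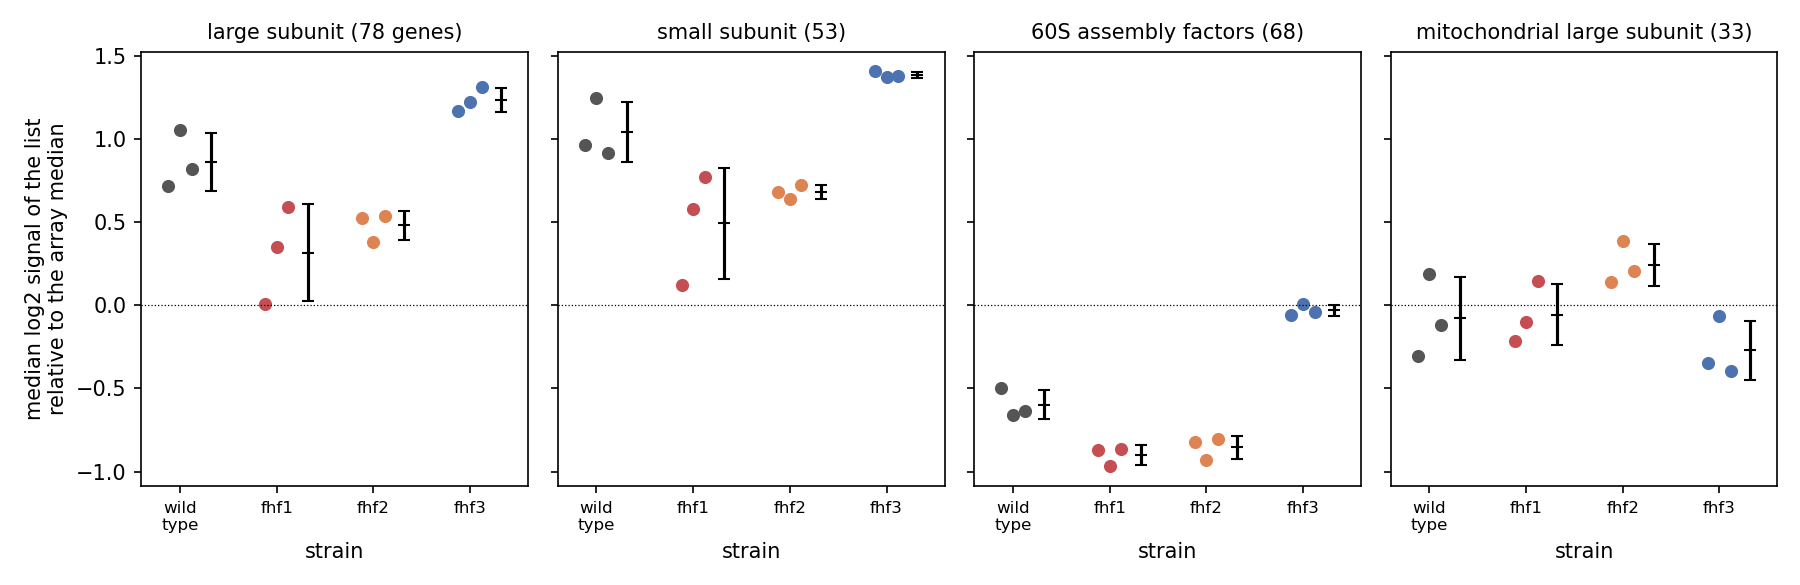
Median log2 signal relative to the array median (y axis) of 4 gene lists in the 3 cultures of each strain (x axis, points), with the mean and SD beside them. The large and small subunits lie lower in fhf1 and fhf2 and higher in fhf3 than in wild type. The assembly factors do likewise, and the cultures of the mitochondrial list overlap between wild type and each mutant.

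Dedicated chaperones bind single large-subunit proteins as they leave the ribosome. None of the 5 was called against wild type on the deposited values. Among all genes, 2.36%, 1.11% and 11.6% fell there in fhf1, fhf2 and fhf3, and 0.52%, 0.0693% and 4.39% rose. Quantile-normalised arrays gave 1 chaperone lower in fhf1, 1 lower in fhf2 and 4 higher in fhf3. Of all genes, 10.2%, 5.29% and 21.4% were called in those directions. SYO1, the carrier of Rpl5 and Rpl11, was higher in fhf3 than in fhf1 by 0.93 (limma adjusted p = 0.00506) and higher than in fhf2 by 0.90. SQT1, the chaperone of Rpl10, was higher in fhf3 than in fhf2 by 0.84 (limma adjusted p = 0.0143), although RPL10 itself was not called. RRB1, ACL4 and BCP1, which serve Rpl3, Rpl4 and Rpl23, were called in no comparison on the deposited values, with RRB1 at 0.65 between fhf3 and fhf1 (limma adjusted p = 0.0674). On quantile-normalised arrays all 5 chaperones were higher in fhf3 than in fhf1 and higher than in fhf2, where 24.1% and 22.7% of all genes were. The deposited values gave 1 of 5 and 2 of 5 higher, where 10.4% and 7.73% of all genes were.

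Of 12 regulators of ribosomal protein genes, CRF1 was the 1 called on the deposited values, lower in fhf3 than in wild type, fhf1 and fhf2. Of all genes, 11.6%, 9.34% and 9.2% were called lower there. Quantile-normalised arrays gave 1 lower in fhf1 and 2 lower in fhf2 against wild type, where 10.2% and 5.29% of all genes were. In fhf3 they gave 2 higher and 4 lower than in wild type, where 21.4% and 24.6% of all genes were. Against fhf1 they gave 2 higher and 4 lower in fhf3, where 24.1% and 23.5% of all genes were. Against fhf2 they gave 3 higher and 1 lower in fhf3, where 22.7% and 23.4% of all genes were. CRF1, a corepressor that competes with Ifh1 for Fhl1, stood at 0.99 ± 0.13 in wild type, 0.98 ± 0.03 in fhf1, 0.83 ± 0.12 in fhf2 and -0.04 ± 0.10 in fhf3 (SD, n = 3). It fell by 1.13 in fhf3 against wild type (limma adjusted p = 0.000496) and was lower in fhf3 than in fhf1 and fhf2 by similar amounts, with log2 fold changes of -1.03 and -0.90. The activators RAP1, FHL1, IFH1, SFP1 and HMO1 had fold changes of -0.51, -0.05, 0.08, -0.21 and 0.40 in fhf3, none of which passed on the deposited values. In fhf1 these 5 genes lay between -0.20 and 0.30. ABF1 and TBF1, general factors that bind some ribosomal protein promoters, had fold changes of -0.43 and -0.04 in fhf1, and the kinase SCH9 and the repressors STB3, DOT6 and TOD6 lay between -0.10 and 0.19 there.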

How the data were processed

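The deposited values are log2 signals per gene for 12 arrays, and the authors' table of log2 fold changes with its adjusted p-values was used beside them. The t scores in that table, computed by the authors, were 0 wherever the deposited log2 fold change lay within 1 of 0, and no t score is printed. Differences of group means from the log2 signals matched the authors' deposited fold changes to within 5e-08. The submitters' processing notes name limma. The scanner software, background correction, between-array normalization and probe summary were not stated anywhere in these sources, nor is it settled whether the triplicate hybridisations in the labels' protocols were averaged. Of 5880 table entries, 103 held no value, 8 were in the authors' table only, and 5769 genes were analysed, 5763 of them with a symbol in the RefSeq table for assembly R64.

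The test was limma 3.58.1 in R 4.3.3 (lmFit and eBayes on all 12 arrays), on the log2 values as deposited, with the median fold change of all genes subtracted. The arrays turned out not to share a common level, and that offset stays in the residual, so the test on quantile-normalised arrays is printed beside it. Scripts were tested on simulated data. Named members were up to 8 called per comparison and direction (the 3 highest and 3 lowest where none was called), the P genes, pairs differing by over 0.8 and single-copy genes. Up to 4 called genes per direction were named from the other lists, with all regulators and chaperones. Not every called gene is reported here by name. Members and lists were chosen with earlier results of these data known. Of 18 pairs of same-numbered cultures, 10 had deviations correlated over 0.1; since not every pair did, the numbers were not taken to pair the cultures, and the fit has no replicate block. Alternatives were centring, normalization, dim-gene filter, variance trend, samples fitted, threshold and omitted arrays. The number of arrays limits the precision. The labels call the cultures of a strain separate and give no batch of extraction or hybridisation.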

Additional observations from a re-analysis of the deposited data

Results flagged for a closer look

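The shift of fhf3 against wild type differed from those of fhf1 and fhf2 when the mutants were tested against each other. On the deposited values, between fhf3 and fhf1, 59 large-subunit genes were called, all higher in fhf3, where 10.4% of all genes were higher and 9.34% lower. Between fhf3 and fhf2, 42 were called, all higher in fhf3, where 7.73% of all genes were higher and 9.2% lower (limma with Benjamini-Hochberg adjustment). Between fhf1 and fhf2 no member was called. These are differences between strains sampled on one day of fermentation, with 3 cultures each. No single-culture values were screened for outliers, because groups of 3 are too small for that.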

How the results depend on the processing

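Members called in either direction are counted in the order fhf1, fhf2 and fhf3 against wild type, then fhf3 against fhf1 and against fhf2. The reported counts were 15, 1, 0, 59 and 42. Shares of all genes called are given above for the deposited values, quantile-normalised arrays and the authors' calls, but not for the other settings. Counts under those settings show how the calls depend on the processing, and are not read as a result about the family. Quantile normalization gave 56, 19, 11, 76 and 69, and without centring 52, 15, 22, 76 and 70. Choices added after seeing the data gave 50, 14, 40, 76 and 74 with each array set to its median, and 56, 15, 17, 77 and 73 with cyclic loess. Without centring the deposited values gave 12, 0, 0, 35 and 10, and the medians of fhf3 against wild type, fhf1 and fhf2 became 0.026, 0.56 and 0.33. Centring on genes of like signal, a variance trend and leaving out the dimmest 25% of genes each brought fhf2 to 0. Fitting only the groups compared gave 2, 0, 0, 56 and 71. A test against a 2-fold change, and for the first 3 the authors' deposited calls, gave 0 in every comparison. Between fhf1 and fhf2 the count was 0 throughout, except 1 with quantile normalization without fhf1 replicate 3.

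With the replicate block, the deposited values gave 14, 1, 0, 58 and 40. Together with quantile normalization the replicate block gave 63, 33, 24, 76 and 73. Of 18 pairs of same-numbered cultures, 10 had correlated deviations over 0.1, between -0.241 and 0.449 in all, and 5 of 12 samples correlated best with their own number.

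Leaving out each array in turn, the counts ran from 0 to 24, 0 to 5, 0 to 11, 30 to 66 and 24 to 54, and on quantile-normalised arrays from 31 to 64, 5 to 38, 3 to 32, 70 to 76 and 60 to 72. The medians kept their sign, from -0.78 to -0.44 in fhf1, -0.59 to -0.29 in fhf2, 0.15 to 0.43 in fhf3, 0.76 to 1.09 against fhf1 and 0.69 to 0.79 against fhf2, and from -0.34 to -0.02 between fhf1 and fhf2. RPL10 in fhf3 against wild type, not called, changed sign to -0.24 without centring and in the authors' deposited table, and to -0.032 with quantile normalization with or without the replicate block. Leaving out each array, it ran from -0.093 without fhf3 replicate 2 to 0.136 without fhf3 replicate 1. RPL26A in fhf3, also not called, ran from -0.369 without fhf3 replicate 3 to 0.056 without fhf3 replicate 1. The causes were not tested. Detection and saturation of probes were not analysed. The median standard error was 0.264 on the deposited values and 0.126 after quantile normalization of the same arrays.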

Other observations

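The 10 members that lie next to another cytosolic ribosomal protein gene in the genome had a median fold change of -0.62 in fhf1 against wild type, beside -0.60 for the other members. The members varied more between cultures of fhf1 than those of fhf2, with a median SD of 0.30 against 0.10, while the medians over all genes were 0.17 and 0.11. After the family median of each culture was subtracted, the members' median SD was 0.11 in fhf1 and 0.09 in fhf2.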
